A study of Mus musculus with 56 samples.

Results

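The 10 glutathione S-transferase genes Gsta3, Gsta4, Gstm1, Gstm2, Gstm3, Gstm5, Gstp1, Gstt1, Gstt2 and Gstk1 were followed through the lung, liver and forestomach of mice given chrysene, a polycyclic aromatic hydrocarbon. They were chosen by gene symbol from the 20018 genes that array probes could be named for through RefSeq accessions, and all 10 were measured in all 3 tissues. Male MutaMouse animals (a transgenic strain carrying a lacZ reporter for mutation scoring), about 14 weeks old, were gavaged daily for 28 days with olive oil alone (vehicle, D0) or with chrysene dissolved in it. The daily chrysene dose was 17.5 mg/kg body weight in group D1, 50 in D2 and 150 in D3, and tissues were taken 72 h after the last dose. The lung data comprised 5, 5, 3 and 5 mice at D0, D1, D2 and D3, and the liver and forestomach data 5, 5, 4 and 5 mice each, which gave 56 arrays of 1 mouse and tissue each. A mouse number names the same animal in every tissue. Every animal carried the transgene and received the oil, and p-values measure the spread between the mice of this single experiment.

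Glutathione S-transferases join glutathione to electrophilic molecules, which makes these water soluble and ready for export. Chrysene is oxidised by cytochrome P450 enzymes, which are themselves induced through the aryl hydrocarbon receptor, to diol epoxides that can bind DNA, and several transferases can conjugate such epoxides. Many transferase genes are known targets of NRF2, a transcription factor that acts through antioxidant response elements when cells meet electrophiles. By class, Gsta3 and Gsta4 are alpha enzymes (Gsta3 detoxifies aflatoxin epoxide in mouse liver and Gsta4 conjugates hydroxynonenal, a product of lipid peroxidation), Gstm1, Gstm2, Gstm3 and Gstm5 are mu enzymes, Gstp1 is a pi enzyme, Gstt1 and Gstt2 are theta enzymes, and Gstk1 is the kappa enzyme of mitochondria and peroxisomes.

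Promoter windows, from 250 bases before to 50 bases after an annotated start, were matched by symbol in RefSeq (mouse build GRCm38.p6) for 8 of the 10 genes, Gsta3, Gstm1, Gstm2, Gstm3, Gstm5, Gstp1, Gstt1 and Gstk1. Gstm1 has 2 annotated starts, which makes 9 windows. Both strands were searched for TGACNNNGC, the core of the antioxidant response element, and for GCGTG, the core bound by the activated aryl hydrocarbon receptor. The first was in 2 of the 9 windows, against 12.4% of 32851 RefSeq windows of this length, and the second in 4 of 9, against 32.4%. The 4 genes with a match are shown with the matches in capitals, 5′ to 3′ on the strand of the gene, and positions count from the annotated start. The windows of Gstm2, Gstm3, Gstt1 and Gstk1 hold neither run of letters.
Gsta3, chr1:21240335-21240634, plus strand, TGACATTGC at -121: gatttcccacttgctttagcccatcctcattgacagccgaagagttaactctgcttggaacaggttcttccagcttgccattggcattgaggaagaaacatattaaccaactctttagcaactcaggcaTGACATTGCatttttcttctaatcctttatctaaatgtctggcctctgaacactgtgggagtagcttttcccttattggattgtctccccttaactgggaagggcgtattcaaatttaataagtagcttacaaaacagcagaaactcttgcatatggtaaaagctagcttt
Gstm1, chr3:108017769-108018068, minus strand, GCGTG at -231: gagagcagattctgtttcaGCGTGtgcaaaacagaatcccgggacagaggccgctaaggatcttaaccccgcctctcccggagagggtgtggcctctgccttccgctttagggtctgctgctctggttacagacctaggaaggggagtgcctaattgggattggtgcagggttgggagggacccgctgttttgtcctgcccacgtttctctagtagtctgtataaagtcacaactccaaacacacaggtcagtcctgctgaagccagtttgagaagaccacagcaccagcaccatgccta
Gstm5, chr3:107895604-107895903, plus strand, TGACCACGC at -42 with CACGC inside it at -38, and CACGC at -171: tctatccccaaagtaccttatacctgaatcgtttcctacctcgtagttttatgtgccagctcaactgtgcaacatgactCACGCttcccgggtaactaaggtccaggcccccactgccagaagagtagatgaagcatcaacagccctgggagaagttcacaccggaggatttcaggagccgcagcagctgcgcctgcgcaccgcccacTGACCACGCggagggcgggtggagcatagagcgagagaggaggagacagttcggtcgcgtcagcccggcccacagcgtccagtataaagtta
Gstp1, chr19:4037863-4038162, minus strand, GCGTG at -13: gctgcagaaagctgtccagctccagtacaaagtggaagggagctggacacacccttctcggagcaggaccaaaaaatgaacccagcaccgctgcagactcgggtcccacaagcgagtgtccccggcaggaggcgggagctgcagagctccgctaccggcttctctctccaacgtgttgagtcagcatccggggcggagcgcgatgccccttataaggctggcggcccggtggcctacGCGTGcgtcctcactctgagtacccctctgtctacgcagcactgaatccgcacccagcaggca
The second start of Gstm1 (window chr3:108017924-108018223) lies upstream of the first and its window holds the same GCGTG, at -76. Gstm5 is thus the 1 member whose window holds both cores, on the opposite strand to Gstm1, Gstm2 and Gstm3 of the same cluster on chromosome 3. A match of letters is a description of the sequence, and binding was not measured.

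Levels are the log2 ratio of a sample's RNA over a universal mouse reference RNA on the same array, so that 0 is the level in the reference and a difference of 1 between arrays is 2-fold. Ratios of 1 probe can be compared between tissues, but ratios of different genes cannot be ranked, since each depends on how much of that transcript the reference holds. Members of the mu class are close in sequence, as are Gstp1 and Gstp2, so a probe may also pick up a relative. On each array a gene's probe was read as a mixture of all cells of the organ, and fewer cells of a type cannot be told apart from less RNA per cell. The labels were checked against marker genes. All 8 hepatocyte markers were well above background on every liver array, all 5 alveolar type 2 markers on every lung array, and 7 to 9 of 9 keratinocyte markers on every forestomach array. Transcripts of glandular stomach on 10 of 19 forestomach arrays and of skeletal muscle and keratinocytes on 2 D3 lung arrays are taken up with the values. The 7 forestomach arrays of slide 3 (2 vehicle, 2 D1, 1 D2 and 2 D3 mice) also stood apart, with 39 to 50.2% of probes well above background against 18.1 to 33.4% on the other 12, and a keratinocyte list mean of 0.57 to 1.62 relative to the vehicle mean against -0.79 to 0.07. Other lists varied too, in forestomach the hepatocyte list (0 to 8 of 8 markers well above background, mean from -1.45 to 1.65 relative to the vehicle mean) and the adipocyte list (1 to 5 of 5, -2.10 to 2.75), and in lung the adipocyte list (2 to 5 of 5, -1.37 to 3.33, with 3.33 and 3.24 on the same 2 arrays and 3.05 on that of D2 mouse 13). Their part in the results was not tested.

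In vehicle mice the levels of most members differed between tissues. Gsta3, Gstm1, Gstm3, Gstp1, Gstt1, Gstt2 and Gstk1 were highest in liver, Gsta4 and Gstm5 were highest in forestomach, and Gstm2 was highest in lung by the probe used. Between liver and lung 9 of 10 members passed an adjusted p of 0.05 and 1.5-fold (limma, all probes), all 9 higher in liver, where 46% of 32854 probes passed. With each array centred on its median in place of the authors' normalisation, which moved the median of all probes by -0.59, only Gsta3 and Gstp1 passed, and Gsta4 (-0.48) and Gstk1 (-0.01) were lower in liver. The share of all probes passing under that centring is not given here, so the smaller count is not read as particular to the members. Between forestomach and lung 7 members passed (Gsta4, Gstm5 and Gstp1 higher, and Gsta3, Gstm2, Gstt1 and Gstk1 lower in forestomach, with 37.6% of 32699 probes passing), but under that centring, which moved the median of all probes by -0.95, Gstm3 (-1.89), Gstp1 (-0.55) and Gstt2 (-1.61) turned lower in forestomach. Between forestomach and liver 9 passed (2 higher and 7 lower in forestomach, with 41% of 29775 probes passing), and the centring moved the median of all probes by -0.21 and turned none of the 10. The median absolute difference of the 10 members was 1.69, 1.12 and 2.15 on the log2 scale in these comparisons, beside 0.53, 0.42 and 0.46 over all probes tested.

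**Figure D1:**
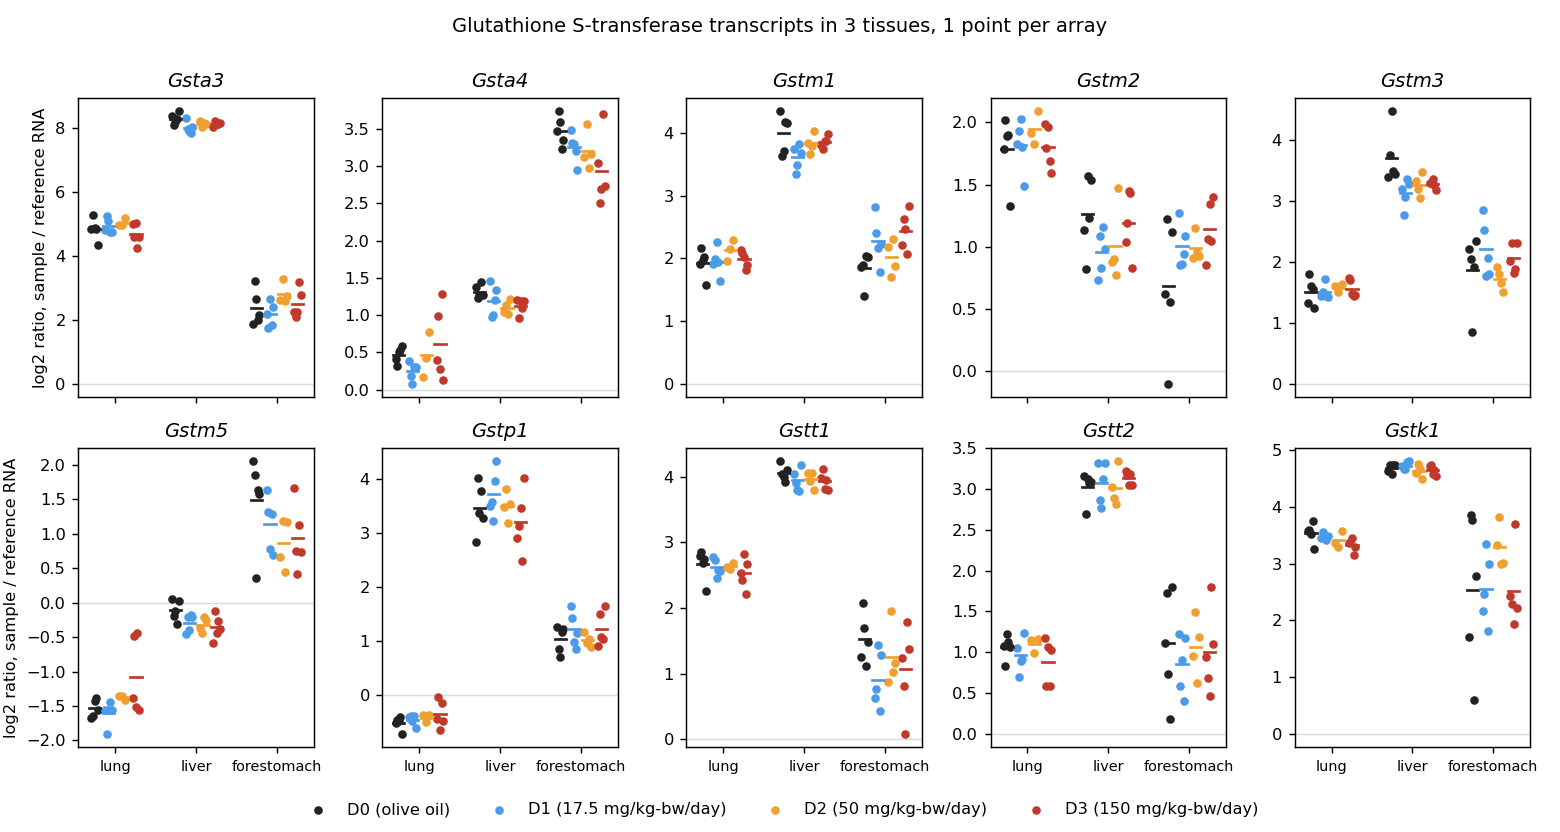
Log2 ratio over reference RNA (vertical axis) of each of the 10 genes on every array of lung, liver and forestomach (horizontal axis), 1 point per mouse and coloured by dose. Tissues stand apart for most genes while most dose groups within a tissue overlap, and the forestomach points of Gstk1 spread from 0.59 to 3.85.

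Gsta3 differed most between tissues. Its levels in vehicle mice 1 to 5 were 4.84, 5.29, 4.88, 4.83 and 4.34 in lung, 8.39, 8.09, 8.17, 8.28 and 8.52 in liver, and 1.86, 3.20, 2.64, 1.98 and 2.14 in forestomach. No mouse of 1 tissue overlapped another tissue, with liver far above and forestomach lowest. The difference between forestomach and liver was -5.93 (60.8-fold lower in forestomach, limma adjusted p = 7.78e-31), and between liver and lung 3.45 (SE 0.19, adjusted p = 2.92e-21). Gsta4, the other alpha member, was also higher in liver than in lung but highest in forestomach, at 3.47, 3.73, 3.59, 3.23 and 3.35 in forestomach, 1.38, 1.23, 1.26, 1.44 and 1.27 in liver, and 0.42, 0.32, 0.51, 0.53 and 0.59 in lung. These 3 ranges did not overlap either, and forestomach was 8.01-fold above lung (log2 difference 3.00, adjusted p = 1.47e-21) and 4.46-fold above liver.

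Within the mu class the order of tissues differed between genes, and Gstm1 and Gstm3 shared a liver maximum. Gstm5, which in mice is expressed in brain and testis among other organs, stood at 2.05, 1.86, 0.36, 1.64 and 1.57 in the forestomach of mice 1 to 5, at 0.05, -0.19, -0.12, -0.31 and 0.03 in liver, and at -1.67, -1.65, -1.42, -1.38 and -1.55 in lung. The forestomach of mouse 3 was well below that of the other 4 yet above every liver, and forestomach exceeded lung 8.17-fold (log2 difference 3.03, adjusted p = 8.88e-17). Gstm1 averaged 4.00 in liver against 1.93 in lung and 1.84 in forestomach, and the latter pair was not separated (difference -0.09, adjusted p = 0.631). Gstm3 averaged 3.71 in liver, 1.51 in lung and 1.87 in forestomach, again without a call between the last 2 (0.36, adjusted p = 0.0902), although leaving out mouse 3 brought one (0.64, adjusted p = 0.000516). A second Gstm3 probe gave vehicle means of 4.61, 0.48 and 1.21 for liver, lung and forestomach, the same tissue on top, but its reference signal was well above background on 0 of 18 lung and 13 of 19 forestomach arrays, so those 2 means are uncertain. Gstm2 averaged 1.78 in lung, 1.26 in liver and 0.68 in forestomach by the probe used. Its 2 other probes gave another order, at 0.90, 1.45 and 0.59 (highest in liver) and at 1.69, 1.09 and 1.16, so its order of tissues depends on the probe. It passed between forestomach and lung (2.14-fold lower in forestomach) but stayed under 1.5-fold between liver and lung (-0.52, adjusted p = 0.00509) and between forestomach and liver (-0.58, adjusted p = 0.00252). Those 2 results sat close to the limit, and the first passed without mouse 5 (-0.71) and the second without mouse 2 (-0.82).

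Gstp1 had its lowest level in lung by the authors' normalisation, while with median centring it was lower in forestomach than in lung (-0.55, adjusted p = 0.483). Vehicle mice 1 to 5 gave -0.51, -0.45, -0.48, -0.39 and -0.71 in lung, 2.84, 4.01, 3.37, 3.77 and 3.28 in liver, and 1.26, 0.85, 0.71, 1.16 and 1.22 in forestomach. The tissues did not overlap, and liver was 15.6-fold above lung (log2 difference 3.96, SE 0.20, adjusted p = 3.03e-23). The theta gene Gstt1 averaged 4.06 in liver, 2.67 in lung and 1.52 in forestomach, and Gstt2 averaged 3.03, 1.06 and 1.11, with no call for Gstt2 between forestomach and lung (0.05, adjusted p = 0.859). Gstk1 was even in liver, at 4.63, 4.74, 4.58, 4.74 and 4.74, and in lung, at 3.58, 3.6, 3.53, 3.75 and 3.25. In forestomach it was scattered, at 1.71, 3.85, 3.78, 0.59 and 2.78, so that 2 mice lay above every lung. Its lower mean in forestomach than in lung (-1.0, adjusted p = 0.00628) lost its call without mouse 1 (-0.78, adjusted p = 0.0582), without mouse 4 (-0.46, adjusted p = 0.169) or with the spread taken from vehicle arrays alone (adjusted p = 0.0782).

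**Figure D2:**
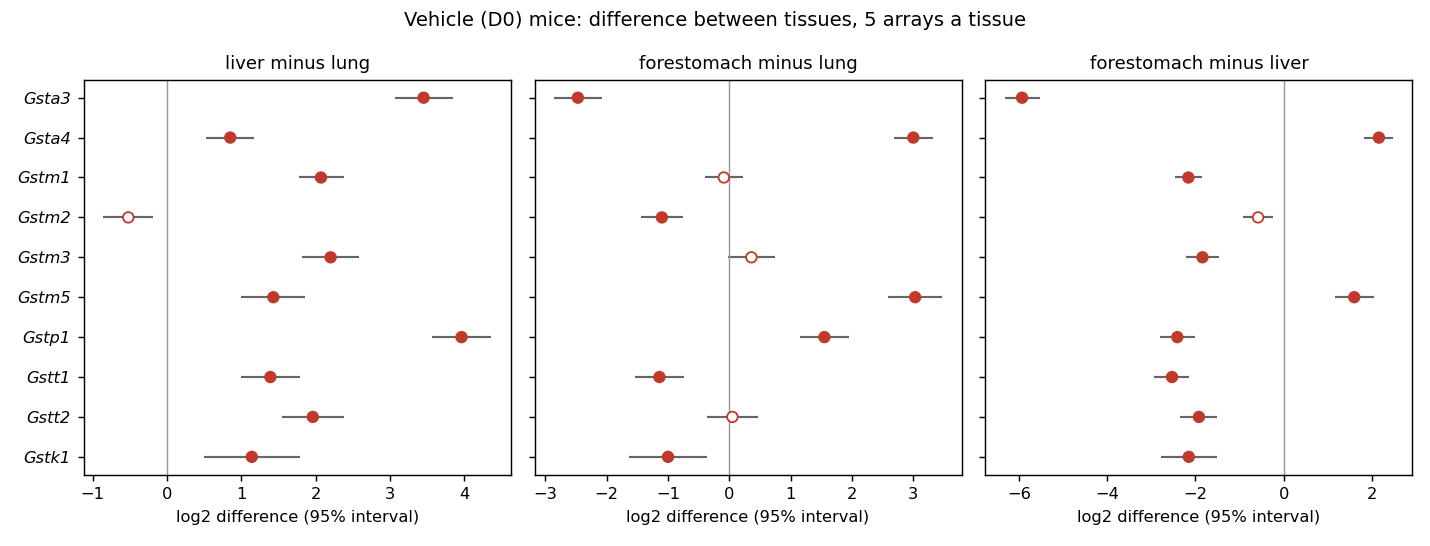
Log2 difference between tissues in vehicle mice (horizontal axis) with its 95% interval for each gene (vertical axis), in 3 panels, filled where the adjusted p and the 1.5-fold limit were both passed. Gsta3 and Gstp1 lie farthest above 0 for liver against lung and Gsta4 and Gstm5 for forestomach against lung; with median centring Gsta4 and Gstk1 (liver against lung) and Gstm3, Gstp1 and Gstt2 (forestomach against lung) fall below 0.

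The levels of Gstk1 in forestomach were read beside the transcripts of glandular stomach, the acid-secreting part that adjoins the forestomach. Of 11 glandular markers measured, all 11 were well above background on 10 forestomach arrays (from 3 of 5 vehicle mice, 2 of 5 D1 mice, 4 of 4 D2 mice and 1 of 5 D3 mice) and 2 to 8 of them on the other 9. Their mean level, relative to the vehicle mean, ran from 1.33 to 2.95 on the first 10 arrays and from -3.76 to -1.86 on the other 9. The hepatocyte list moved with the same split, from -0.44 to 1.65 (median 0.58) on the first 10 arrays and from -1.45 to 1.18 (median -0.84) on the other 9, where mouse 20 was the highest and the next was -0.32. The adipocyte list had medians of -0.42 and -1.16 and the keratinocyte list 0.30 and -0.07, both with wide overlap. The part of each list in the members' values was not tested. Gstk1 was 2.78 to 3.85 (median 3.33) with the full marker set and 0.59 to 2.46 (median 2.16) without it, and the 2 sets did not overlap, as was so for 1.52% of all forestomach probes tested. The other 9 members overlapped. Their medians with and without the full set were 1.46 and 0.81 for Gstt1, 2.65 and 2.09 for Gsta3, 1.18 and 0.68 for Gstt2, 3.32 and 3.20 for Gsta4 and 1.00 and 0.95 for Gstm2. They were lower with the full set for Gstm3 (1.80 and 2.21), Gstm1 (2.04 and 2.41), Gstm5 (0.95 and 1.31) and Gstp1 (1.01 and 1.26). These sets were drawn after the values were seen. With only the forestomach arrays holding the full set, Gstk1 differed from lung by -0.07 (adjusted p = 0.704), and with only the other arrays by -2.39 (adjusted p = 4.02e-16). Those p-values use the same sets and are a description. Within the full set Gstk1 and the marker mean gave r = 0.79 and rho = 0.67 (n = 10, permutation p = 0.0091, adjusted over 20 relations p = 0.0607; r = 0.71 without the 2 farthest arrays), and within the other set r = 0.04 (n = 9, permutation p = 0.899, adjusted p = 0.925). None of the 20 relations passed, and they used levels from which dose group means were not subtracted. All D2 forestomachs held the full set, and so did 3 of 5 vehicle forestomachs. Gstk1 averaged 3.29 at D2 and 3.47 in those 3 vehicle mice, while its D2 change against all vehicle mice was 0.75. The part of the glandular set in that change was not tested.

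**Figure D3:**
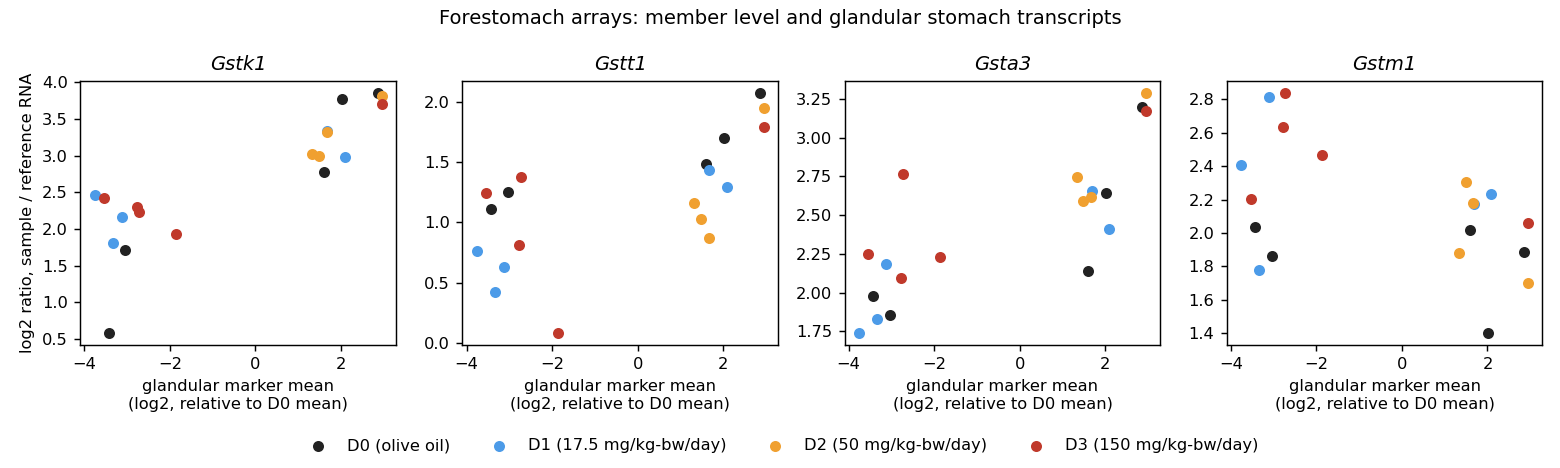
Log2 ratio over reference RNA of Gstk1, Gstt1, Gsta3 and Gstm1 (vertical axes) against the mean level of 11 glandular stomach markers relative to the vehicle mean (horizontal axes) on the 19 forestomach arrays, coloured by dose. The arrays form 2 clusters along the horizontal axis, and all Gstk1 values of the right cluster exceed those of the left.

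The main question of the series was which transcripts respond to chrysene in each tissue. None of the 10 members passed both limits (limma adjusted p of 0.05 and 1.5-fold) at any dose in any tissue, nor did any pass for a trend over the 4 dose steps, and this held under the alternatives of the dose comparisons that were run, except that without the 7 forestomach arrays of slide 3 Gsta4 passed at D3 and for the trend. Calls were scarce for all probes too. In lung 0% of 31496 probes passed at D1 and D2, 0.127% at D3 and 0.168% for the trend. In liver 0% of 24769 passed in all 4 comparisons, and in forestomach 0% of 27527 at D1 and D2, 0.00727% at D3 and 0.04% for the trend. At an unadjusted p of 0.05 and D3, 2 members were counted in lung, 3 in liver and 3 in forestomach, beside 16.2%, 4.8% and 9.24% of all probes, so in lung the members' share was near that of all probes and in the other tissues above it. The comparisons of a tissue share their vehicle mice. Over the 10 members the log2 fold changes ran from -0.22 to 0.09 at D1 and -0.13 to 0.20 at D2 in lung, from -0.58 to 0.26 and -0.45 to 0.05 in liver, and from -0.61 to 0.44 and -0.63 to 0.75 in forestomach.

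**Figure D4:**
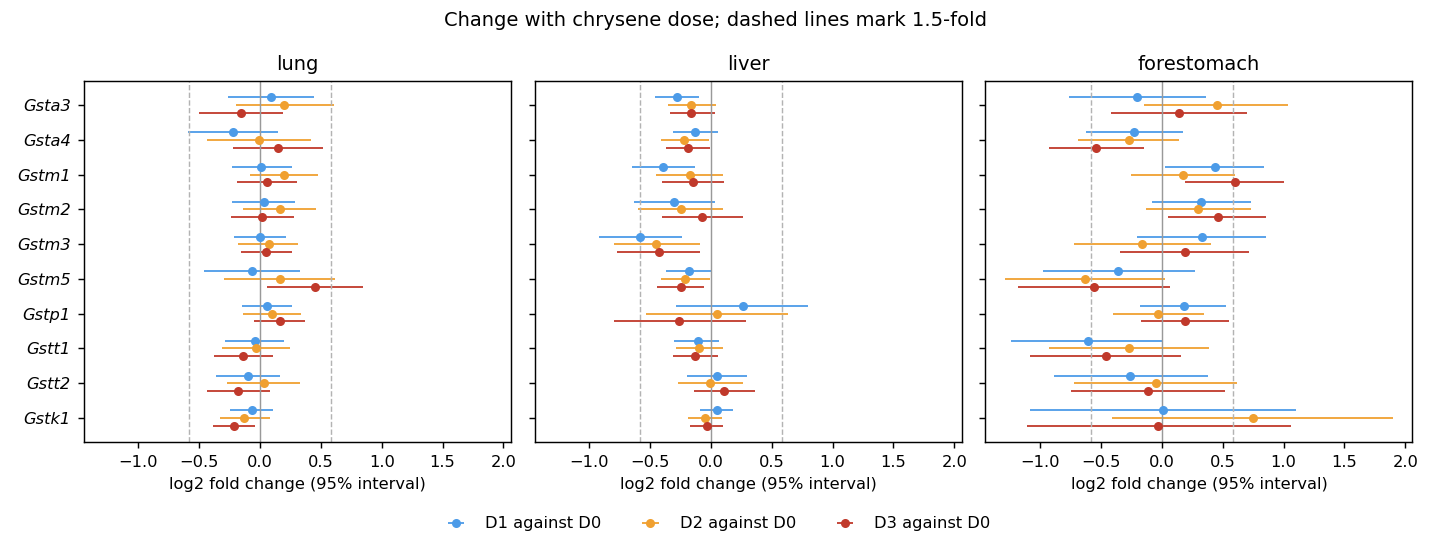
Log2 fold change against vehicle mice (horizontal axis) with 95% intervals for each of the 10 genes (vertical axis) at D1, D2 and D3 in the 3 tissues, with dashed lines at 1.5-fold. Most liver points lie just left of 0, and the widest intervals are those of Gstk1 in forestomach.

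In liver the changes were small and mostly downward. At D3, 9 of the 10 members were below vehicle and their median change was -0.15, beside -0.01 over all probes, of which 47% were above 0. At D2 the count was again 9 of 10 and the median -0.16. Gstm3 gave 3.40, 3.75, 4.47, 3.49 and 3.44 in vehicle mice, 3.20, 2.77, 3.06, 3.35 and 3.28 in D1 mice, 3.33, 3.20, 3.05 and 3.48 in D2 mice, and 3.30, 3.30, 3.36, 3.26 and 3.17 in D3 mice. All D1 and D3 livers lay below all vehicle livers, while 1 D2 liver did not. The change was -0.58 at D1 (95% interval -0.92 to -0.24, limma adjusted p = 0.765) and -0.43 at D3 (-0.77 to -0.09, adjusted p = 0.965), and -0.24 at D3 without vehicle mouse 3, the highest. Vehicle mice 2 and 3, which gave the 2 highest ratios, had the lowest sample signals of this probe, 671 and 988 against 3317 to 10050 in the other 17 livers. Without both, an alternative chosen after seeing the data, the D3 change was -0.17 (adjusted p = 0.801). The part of that low signal in the separation of the groups was not tested. The second Gstm3 probe changed by -0.04 at D3 and its correlation with the first over the 19 livers was -0.02, so the 2 probes disagree in this tissue.

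Gsta4 was the other liver member whose groups separated. Vehicle livers gave 1.38, 1.23, 1.26, 1.44 and 1.27, D2 livers 1.04, 1.13, 1.02 and 1.22, and D3 livers 1.2, 0.96, 1.18, 1.09 and 1.19. Every D2 and D3 liver was thus below every vehicle liver, by a small margin, and the D3 change was -0.19 (SE 0.09, adjusted p = 1). Groups that did not overlap in this way, in either direction, made up 0.48% of all liver probes at D1 (1 member, Gstm3), 1.24% for the D2 group (1 member, Gsta4) and 0.739% for the D3 group (both). Gstm5 in liver gave 0.05, -0.19, -0.12, -0.31 and 0.03 in vehicle mice and -0.59, -0.12, -0.44, -0.26 and -0.39 at D3, with overlap (-0.25, adjusted p = 0.965). At D1, where 3 members had an unadjusted p of 0.05 or less beside 3.61% of all probes, Gsta3 changed by -0.28 (adjusted p = 0.85) and Gstm1 by -0.39 (adjusted p = 0.92) besides Gstm3. Gstk1 was the steadiest member in liver, between 4.50 and 4.81 over 19 mice, and its D3 change was -0.03. The remaining D3 changes in liver were -0.16 for Gsta3, -0.15 for Gstm1, -0.13 for Gstt1, -0.07 for Gstm2 and, as the 1 value above 0, 0.11 for Gstt2.

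Gstp1 varied more between livers than any other member did there, without a call at any dose. Its levels were 2.84, 4.01, 3.37, 3.77 and 3.28 in vehicle mice, 3.49, 3.57, 3.23, 3.95 and 4.32 in D1 mice, 3.48, 3.82, 3.18 and 3.54 in D2 mice, and 2.90, 3.13, 3.47, 2.48 and 4.01 in D3 mice. The group means were 3.46 ± 0.45 (SD, n = 5), 3.71 ± 0.43 (n = 5), 3.50 ± 0.26 (n = 4) and 3.20 ± 0.58 (n = 5), and all groups overlapped. The D3 change was -0.26 (95% interval -0.80 to 0.29, adjusted p = 1). The SD within groups, 0.455, was at percentile 97.4 of all liver probes tested, whose median was 0.156. A probe for Gstp2, the neighbouring gene of near-identical sequence, gave r = 0.98 with it over the 19 livers, and a second Gstp1 probe gave 0.96. These are descriptions of probes that may read the same transcripts.

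**Figure D5:**
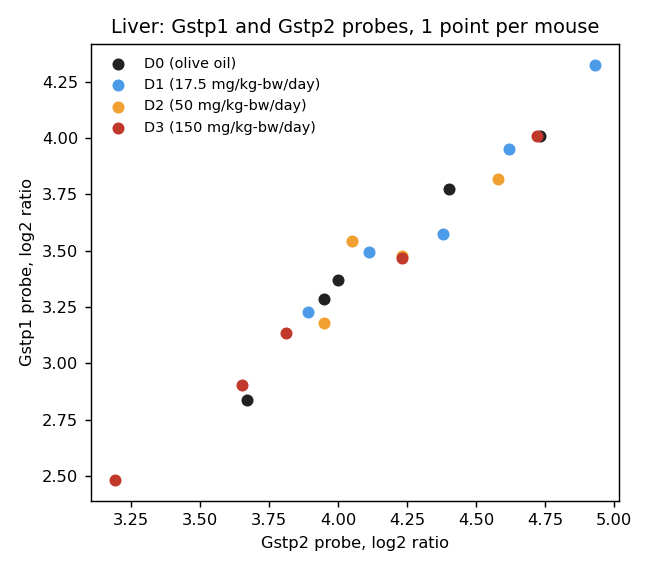
Log2 ratio of the Gstp1 probe (vertical axis) against that of a Gstp2 probe (horizontal axis) in 19 livers, coloured by dose. The points follow 1 line (r = 0.98) from 2.48 to 4.32 on the Gstp1 axis, with every dose group spread along it.

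In forestomach Gstm1 and Gstm2 were higher and Gsta4 lower at D3 at an unadjusted p of 0.05. Gstm1 gave 1.86, 1.89, 1.40, 2.04 and 2.02 in vehicle mice and 2.21, 2.63, 2.47, 2.06 and 2.84 at D3, and the lowest D3 mouse, 19, was just above the highest vehicle mouse. Its change was 0.60 (95% interval 0.19 to 1.00, limma adjusted p = 0.285), 0.55, 0.75 and 0.50 within the 3 slides, and 1.11 with median centring. The second Gstm1 probe changed by 0.38. It was the 1 member of 10 separated from vehicle at D3, where 1.38% of all probes were. At D1 (2.81, 2.41, 2.17, 1.78 and 2.23) and D2 (2.18, 1.70, 2.31 and 1.88) it overlapped vehicle. Gstm2 gave 0.62, 1.23, -0.10, 0.55 and 1.12 in vehicle mice and 0.85, 1.07, 1.34, 1.05 and 1.40 at D3, with overlap (0.46, adjusted p = 0.452; 0.34, 1.11 and 0.05 within slides, 0.99 with median centring and 0.08 with array column as a covariate). Its 2 other probes changed by 0.04 and -0.14 and correlated with it at 0.63 and 0.33 over the 19 forestomachs, so the probes disagree here.

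Gsta4 gave 3.47, 3.73, 3.59, 3.23 and 3.35 in vehicle forestomachs and 3.04, 2.51, 2.69, 3.70 and 2.73 at D3. The other 4 D3 mice lay below all vehicle mice, while mouse 19, the 1 D3 mouse with the full glandular marker set, lay among them. The change was -0.54 (95% interval -0.93 to -0.15, adjusted p = 0.32), was -0.70, -0.72 and -0.33 within slides, and turned to 0.16 with median centring. Without the arrays of slide 3, an alternative chosen after seeing the data that leaves 3 vehicle and 3 D3 mice, Gsta4 passed both limits at D3 (-0.68, adjusted p = 0.0471), where 1.37% of all probes did against 0.00727% with all arrays, and for the trend (-0.67, adjusted p = 0.0268, beside 2.01%). The 2 vehicle mice it leaves out, 2 and 5, both held the full glandular set, and so did D3 mouse 19. With slide as a block no member passed, and the D3 change was -0.54 for Gsta4 (adjusted p = 0.177), 0.57 for Gstm1 (0.192), 0.45 for Gstm2 (0.202) and -0.66 for Gstm5 (0.288). The part of the slide's higher signal and keratinocyte level in these values was not tested. Gstm5 had 2.05, 1.86, 0.36, 1.64 and 1.57 against 1.67, 0.75, 0.42, 1.13 and 0.73 (-0.56, adjusted p = 0.607; 0.01 with median centring), and the groups overlapped. With the glandular marker mean as a covariate, an alternative chosen after seeing the data, the D3 change was -0.46 for Gsta4 (adjusted p = 0.244), 0.53 for Gstm1 (0.199) and -0.67 for Gstm5 (0.298), and no member passed. Among the arrays lacking the full glandular marker set (2 vehicle and 4 D3 mice) the means differed by -0.61 for Gsta4, 0.58 for Gstm1 and -0.95 for Gstm5, and among those with the full set (3 vehicle mice and 1 D3 mouse) by 0.14, 0.29 and -0.14. Gstk1 changed by -0.03 with an interval of -1.11 to 1.06, so a 2-fold change either way lies within or near its bounds. The other members read 0.14 for Gsta3, 0.19 for Gstm3 and Gstp1, -0.46 for Gstt1 and -0.11 for Gstt2 at D3, with adjusted p from 0.703 to 0.953, and the latter pair was above 0 with median centring (0.14 and 0.11).

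In lung Gstm5 was higher and Gstk1 lower at D3 at an unadjusted p of 0.05. Gstm5 gave -1.67, -1.65, -1.42, -1.38 and -1.55 in vehicle mice and -1.39, -0.49, -1.52, -0.44 and -1.56 at D3, with 2 D3 mice (17 and 19) about 1 log2 unit above all the rest. Those 2 arrays also carried all 11 skeletal muscle markers well above background, at means of 6.01 and 6.15 over the vehicle mean, where the other 16 lung arrays had 6 to 8 of 11 and means from -0.36 to 0.76. Keratinocyte markers were 3.93 and 4.36 above the vehicle mean on the same 2 arrays, with 8 and 9 of 9 well above background, and at most 0.18 above it on the others. The Gstm5 change was 0.45 (95% interval 0.06 to 0.85, adjusted p = 0.255) with all mice, and 0.05 (adjusted p = 0.916) without these 2. Gsta4 in the D3 lungs read 0.40, 0.99, 0.28, 1.28 and 0.13, high in the same mice, and its change went from 0.15 to -0.20 without them. Within slides the Gstm5 change was 1.17, 0.40 and 0.01.

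Gstk1 in lung gave 3.58, 3.6, 3.53, 3.75 and 3.25 in vehicle mice and 3.36, 3.38, 3.45, 3.15 and 3.30 at D3, with overlap. The change was -0.21 (95% interval -0.39 to -0.04, adjusted p = 0.24), -0.17 without mice 17 and 19, and 0.03 with median centring. The other 7 members, Gsta3, Gstm1, Gstm2, Gstm3, Gstp1, Gstt1 and Gstt2, changed by -0.18 to 0.16 in lung at D3. No member was separated from vehicle at D3 in lung, where 2.61% of all probes were. All 5 vehicle lung arrays lay in column 1 of their slides and no dosed lung array did, so place on the slide and vehicle treatment cannot be told apart in lung. Over the 3 tissues the column followed the dose group on 50 of 56 arrays, with 4 of 5 vehicle arrays of liver and of forestomach in column 1, so that the dose changes of those tissues are nearly confounded with it as well. With the column as a covariate, which rests on the few arrays out of this order, no member passed. The D3 changes then were -0.20 for Gstm3 and -0.22 for Gsta4 in liver, and -0.81 for Gsta4, 0.67 for Gstm1 and -0.91 for Gstm5 in forestomach.

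The D3 change was compared directly between tissues, since a call in 1 tissue and none in another is no test. The difference in D3 change passed both limits for 0% of 32854 probes between liver and lung, 0.706% of 32699 between forestomach and lung and 0.0806% of 29775 between forestomach and liver, and for none of the 10 members. Gstm5 differed by -1.01 between forestomach and lung (95% interval -1.63 to -0.39, limma adjusted p = 0.094), and Gsta4 by -0.69 (adjusted p = 0.127). Gstm1 differed by 0.74 between forestomach and liver (0.31 to 1.18, adjusted p = 0.138). Without the lung arrays of mice 17 and 19, the values of Gstm5 and Gsta4 were -0.60 and -0.34. With only the forestomach arrays that lacked the full glandular set, 3 members passed between forestomach and lung (Gstm5 -1.41, Gsta4 -0.75, and Gstk1), and 2 between forestomach and liver (Gstm1 0.73 and Gstk1), beside 8.84% and 9.03% of all probes, with 2 vehicle and 4 D3 forestomachs left. With only the arrays holding the full set no member passed, beside 0.113% and 0.107% of all probes, but that leaves 3 vehicle forestomachs and 1 D3 forestomach, whose spread is assumed to be that of the other groups, so it does not show that the changes were alike. Without the forestomach arrays of slide 3, 1 member passed between forestomach and lung (Gsta4 -0.83, adjusted p = 0.0174, beside 4.58% of all probes) and 2 between forestomach and liver (Gstm1 0.81, adjusted p = 0.0199, and Gstm2 0.80, adjusted p = 0.0384, beside 4.32%).

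Several members were correlated between lungs of the same dose group. After subtracting group means, 19 of 45 pairs of members were correlated over the 18 lungs at a permutation p adjusted over the 45 pairs of 0.05 or less by Pearson's r, and 16 by both r and Spearman's rho, while 0 of 45 were over the 19 livers. The difference between the tissues was not tested. Correlation was common in lung, since the smallest r that passed had a size of 0.54, reached by 42.2% of member pairs and by 15.5% of 15293215 pairs among 5531 genes measured on all arrays. Without mice 17 and 19, an alternative chosen after seeing the data, 11 pairs passed by r and 8 by both measures, at a size of 0.63 or more, which 6.18% of all gene pairs reached. Gstm1 and Gstm2 gave r = 0.89 and rho = 0.87 in lung (permutation p = 1e-05, the smallest the permutations can give, adjusted p = 0.00045), r = 0.79 without the 2 mice farthest from the median of Gstm1, and r = 0.81 and 0.92 within slides 2 and 3 (slide 1 held 5 lung arrays). In liver the pair gave r = 0.17 (permutation p = 0.484, adjusted p = 0.736). Gsta3 and Gstm2 gave r = 0.83 in lung, Gstm1 and Gstm3 0.80, and Gsta4 and Gstm5 0.84. Without mice 17 and 19 the first 3 of these 4 pairs gave r = 0.90, 0.88 and 0.79, and Gsta4 and Gstm5 gave 0.27 (n = 16, permutation p = 0.307, adjusted p = 0.493), so that relation rests on these 2 mice. Between the lung and liver of the same mouse, 0 of 10 members were correlated at an adjusted p of 0.05, with Gsta3 at r = -0.52 (permutation p = 0.0275, adjusted p = 0.275) over 18 mice. In forestomach levels were used without subtracting group means. There 0 of 45 pairs passed by both measures among the 9 arrays lacking the full glandular set. Among the 10 with the full set 0 passed by both, and 3 (Gsta4 and Gstt1, Gstm5 and Gstt2, Gsta3 and Gstk1) passed by r alone.

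A list of 49 other genes of glutathione biology was read in the same fits. It held 16 further transferases, 15 genes of glutathione synthesis and recycling, 9 peroxidases, and 9 genes of conjugate export and mercapturate formation. Of these, 44 were tested in lung, 40 in liver and 45 in forestomach, none passed both limits at any dose or for the trend, and their median D3 change was 0.00 in each tissue. At an unadjusted p of 0.05, 3 were higher and 3 lower at D3 in lung, none in liver, and 2 higher in forestomach, beside 16.2%, 4.8% and 9.24% of all probes, so the list's share did not exceed that of all probes in any tissue. Genes far from 0 on each side at D3 are named for each tissue. In lung the alpha transferase Gsta2, a known target of the aryl hydrocarbon receptor and of NRF2, read 0.98 (SE 0.46, adjusted p = 0.305) and Gsta1 0.89 (adjusted p = 0.33), while Gclc, the catalytic subunit that limits glutathione synthesis, read -0.37 (adjusted p = 0.34) and Dpep1, a dipeptidase of conjugate breakdown, -0.34 (adjusted p = 0.208). In liver Gsta2 read 0.41 and the peroxidase Gpx6 0.31, against -0.42 for Chac1, which degrades glutathione, and -0.35 for Gsta1, all with an adjusted p of 1. In forestomach the mu gene Gstm6 read 1.15 (SE 0.71, adjusted p = 0.688), against -0.91 for the microsomal transferase Mgst3 (adjusted p = 0.681) and -0.83 for Gsta1 (adjusted p = 0.632). None of these passed, and the sign for Gsta1 was not the same in all tissues. Between the livers and lungs of vehicle mice 24 of 46 passed higher and 12 lower in liver, where 46% of all probes passed. Examples chosen after their values were seen were Nat8, the enzyme of the last mercapturate step, 6.77 higher in liver on the log2 scale, and Abcc2, a canalicular exporter of conjugates, 6.20 higher. Gsta1 was 7.21 higher in forestomach than in lung, and Gpx2, the gastrointestinal peroxidase, 6.26 higher in forestomach than in liver.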

How the data were processed

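RNA of each mouse and tissue (labelled with Cy5) was hybridised with a universal mouse reference RNA (Cy3) to Agilent SurePrint G3 two-colour arrays without dye swaps, so a probe's dye bias is in every ratio and cancels between arrays. The scans were read with Feature Extraction 10.7.3.1 per the file headers. The authors deposited log2 ratios, which their methods describe as LOWESS normalised medians without background subtraction, together with the scanner files, whose intensity columns (deposited median signals and background flags) were used to choose probes and for the alternatives. The direction and scale of the deposited log2 ratios were checked against LOWESS ratios computed from the scanner intensities of each array (r = 0.9773 to 0.9981, slope 0.9523 to 0.9961). With ratios before normalisation r was lower, from 0.2846 (forestomach, vehicle mouse 4) to 0.9859 (lung, D1 mouse 8). No reference genome of the scanner design's build was used, and promoter positions are those of GRCm38.p6.

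Probes were named by matching RefSeq accessions to symbols (26413 of 55681 probes). Control spots (3671) were left out. The deposited ratios were used as given, except where every spot of a probe was an outlier (0 to 41 outlier spots an array). For ratios computed from scanner intensities, outlier spots were left out and spots of a probe were averaged. For each gene and tissue the probe with the highest mean Cy5 median signal was read. The 10 members had 16 probes, none saturated, and the chosen ones were well above background on all arrays except Gstt2 on 1 of 19 forestomach arrays. The share of probes well above background, which limits precision, was 47.6 to 55.2% in lung, 33.2 to 45.2% in liver and 18.1 to 50.2% in forestomach.

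Each tissue was fitted over all probes well above background on at least 3 of its arrays with limma 3.58.1 in R 4.3.3 (dose group means, or a trend over dose steps), and tissues were compared in 1 fit of all 56 arrays. A call needed a Benjamini-Hochberg adjusted p of 0.05 or less over all probes tested and a 1.5-fold change. The study's methods name MAANOVA's Fs test with these limits, and limma was used in its place. The fits were tested on simulated data. Correlations in lung and liver used deviations from group means. Those within forestomach used the levels themselves, so dose was not removed there. All used 100000 permutations, two-sided. Member and marker lists were chosen with earlier results of these data known. Named were all 10 members, of the other glutathione genes those past both limits in a dose comparison and the 2 largest rises and falls at D3 in each tissue, and the 2 genes most like each member; others were chosen after their values were seen. Of the genes this rule names, 2 are not reported here.

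The same mouse gave all 3 tissues. Deviations from group means of the same mouse over all probes correlated at 0.0415 to 0.271 between lung and liver (18 mice), -0.0876 to 0.131 between forestomach and lung and -0.167 to 0.247 between forestomach and liver. The medians were 0.123, 0.0164 and 0.0635, against -0.00904, 0.00202 and 0.0126 between different mice. With forestomach these medians were close, so its pairing rests on the labels.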

Additional observations from a re-analysis of the deposited data

Results flagged for a closer look

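Among 110 groups of 4 or 5 mice, 8 held 1 mouse far from the rest, where chance gives about 1 in 20. In the forestomach of vehicle mouse 3, Gstm1 (1.40, others 1.86 to 2.04), Gstm3 (0.85, others 1.92 to 2.35) and Gstm5 (0.36, others 1.57 to 2.05) were all low. Gstk1 in the D3 forestomach of mouse 19 was 3.71 (others 1.93 to 2.42), the 1 D3 forestomach with the full glandular marker set. Gstt2 in the liver of vehicle mouse 2 was 2.69 (others 3.07 to 3.16). In lung, Gstt1 of vehicle mouse 5 was 2.26 (others 2.68 to 2.85), Gstm3 of D1 mouse 8 was 1.72 (others 1.42 to 1.51) and Gstm5 of D1 mouse 7 was -1.90 (others -1.56 to -1.44).

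The D3 change of Gstm1 had opposite signs in 2 tissues, 0.60 in forestomach and -0.15 in liver (95% interval -0.40 to 0.11), and neither passed. The difference of 0.74 did not pass over all probes (limma interaction, adjusted p = 0.138).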

How the results depend on the processing

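No member passed at any dose, or for the trend, under the alternatives run for each, with 1 exception. Without the forestomach arrays of slide 3, 1 member (Gsta4) and 1 other gene of glutathione biology passed at D3, 1 member for the trend, and 1 and 2 members for the D3 difference of forestomach from lung and from liver, while 9, 7 and 10 passed between vehicle tissues. The shares of all probes beside those vehicle counts are not given here, so the counts are not read as particular to the members. Forestomach Gstt2 then read 0.02 and Gstk1 0.19 at D3, and Gstt2 -0.39 between vehicle forestomach and lung. Array column and glandular covariates were not run for the trend. With median centring, which moved the median of all probes at D3 by 0.14 in lung, -0.04 in liver and 0.18 in forestomach, the D3 change was 0.08 for Gsta3 and Gstt1, 0.05 for Gstt2 and 0.03 for Gstk1 in lung, and 0.16 for Gsta4, 0.01 for Gstm5, 0.14 for Gstt1, 0.11 for Gstt2 and 0.26 for Gstk1 in forestomach. It left 2 members past the limits between liver and lung, Gsta3 and Gstp1, turned Gsta4 (-0.48) and Gstk1 (-0.01) there, turned Gstm3 (-1.89), Gstp1 (-0.55) and Gstt2 (-1.61) between forestomach and lung, and made the D3 difference of forestomach and liver 0.42 for Gsta4 and 0.30 for Gstm5. The share of all probes beside that count of 2 is not given here. With array column as a covariate the D3 change in lung was 0.56 for Gsta3, -0.17 for Gstm5, -0.10 for Gstp1 and 0.28 for Gstt2, in liver 0.48 for Gstp1 and -0.03 for Gstt2, and in forestomach -0.48 for Gsta3. Without lung mice 17 and 19 it was 0.03 for Gsta3, -0.20 for Gsta4, -0.01 for Gstp1, 0.00 for Gstt1 and 0.02 for Gstt2, and the D3 difference of liver and lung was 0.01 for Gsta4. With glandular markers as a covariate, forestomach Gstt2 read 0.08 and Gstk1 0.45. Other reversals were liver Gstk1 at D3 (0.06, normexp), lung Gstm2 (-0.04, mean over probes), and between vehicle forestomach and lung Gstt2 (-0.02, own LOWESS) and Gstm1 (0.09, mean over probes). The forestomach arrays lacking the full glandular set gave Gstm1 0.02 and Gstt2 -0.41 there, with 3 and 2 members past the limits for the D3 difference from lung and from liver, and those holding it gave D3 differences from liver of 0.33 for Gsta4 and 0.11 for Gstm5. The cause of these reversals was not tested.

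Leaving out each mouse in turn, values crossed 0 for the D3 change in lung of Gsta4 (-0.02 to 0.27), Gstm1 (-0.03 to 0.12), Gstm2 (-0.09 to 0.08) and Gstm3 (-0.01 to 0.13), in liver of Gstm2 (-0.18 to 0.02), in forestomach of Gsta3 (-0.03 to 0.35), Gstm3 (-0.07 to 0.31), Gstt2 (-0.34 to 0.06) and Gstk1 (-0.51 to 0.30), and for the vehicle difference of forestomach and lung of Gstm1 (-0.22 to 0.03) and Gstt2 (-0.17 to 0.29). The number of members whose D3 change differed between forestomach and lung went from 0 to 1 without some mice. Gstm5 passed without vehicle mouse 3 (-1.32, limma adjusted p = 0.0128, beside 1.21% of all probes) or D3 mouse 16 (-1.27, adjusted p = 0.0291, beside 1.21%). Gsta4 passed without D3 mouse 19 (-0.71, adjusted p = 0.0491, beside 0.82%). With all mice 0.706% of all probes passed, so the share over all probes rose as well. With mouse as a replicate block (the pairing of tissues within an animal), 9, 7 and 9 members passed between vehicle tissues as before, and the D3 differences were -1.01 for Gstm5 (adjusted p = 0.0833) and -0.69 for Gsta4 (0.113) between forestomach and lung and 0.74 for Gstm1 (0.121) between forestomach and liver, with no member past the limits. The alternatives that leave out lung mice 17 and 19 between tissues or in correlations, leave out liver mice 2 and 3 or slide 3 of forestomach, split the forestomach arrays or use glandular markers were chosen after seeing the data.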

Other observations

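Over all 56 arrays, after subtracting the mean of each tissue and dose group, the genes most like each member among 5522 other genes were read by Pearson's r, as a description with no test. The alpha gene Gsta3 was most like Suox, the mitochondrial sulfite oxidase (r = 0.82, with 0.59, 0.30 and 0.94 in lung, liver and forestomach), and Selenop, the plasma selenoprotein (0.81, with 0.56, 0.68 and 0.90). The theta gene Gstt1 had the same pair (0.80 and 0.77, in liver 0.60 and 0.49). Gsta4 was most like the glycolytic gene Tpi1 and the respiratory chain gene Cox6b1 (both 0.77), but not in liver (0.20 and -0.03). Gstm1 (0.69) and Gstm3 (0.77) were each most like Gstm4, another mu gene, with Gstm3 next like Cast (0.72, but 0.05 in lung). Gstm3 tracked Gstm4 in lung (0.89) and forestomach (0.94) and little in liver (0.15). Gstm2 was most like Pdf (0.74) and Fgfr3 (0.65), in liver 0.38 and 0.32, Gstm5 like Dusp22 (0.80) and Higd1a (0.77), in liver 0.24 and -0.17, and Gstt2 like Cmtm8 (0.83) and Sh3yl1 (0.78, but 0.04 in liver). Gstp1 was most like Gstp2 (0.82, with 0.74, 0.98 and 0.62 in lung, liver and forestomach) and far less like the next gene, Nop16 (0.51). Gstk1 was most like Bace2 (0.95) and Epb41l4b (0.94). For Bace2 the r was 0.98 in forestomach, 0.39 in lung and 0.08 in liver, and for Epb41l4b 0.96, 0.80 and 0.20. Forestomach arrays differ in glandular transcripts.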
